A study of Mus musculus with 2 samples.

Results

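The genes that carry proteins into the endoplasmic reticulum (ER), attach N-glycans to them and move them on in COP-coated vesicles were followed in APL#2 and APL#1, a pair of mouse acute promyelocytic leukaemias driven by the fusion protein PML-RAR. The 49 genes were taken by symbol from a table of 23235 genes, all 49 were found, and the rule itself uses no expression value. RNA was sequenced from 1 library per leukaemia. Both leukaemias arose in C57BL/6-Ly5.2 mice labelled as PML-RAR KI APL in genotype and as mCG-PML-RAR transgenic in source, both were labelled untreated, and both carry an age of 10 weeks. APL#2 was passed on with 200000 cells and APL#1 with 2000000 cells, by vein, into non-irradiated C57BL/6-Ly5.1 recipients, and the CD45.2+ cells of the spleens were purified on immunomagnetic columns. Each leukaemia stems from 1 mouse and is 1 clone, both libraries carry the unexplained letters VEH in their titles, and the prefix mCG is not explained in the labels. The series describes the leukaemias as clones with different frequencies of leukaemia-initiating cells, without saying which is higher.

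Most secreted and membrane proteins of a promyelocyte, the granule-forming stage of neutrophil development, begin their path at the ER. The signal recognition particle (SRP) halts a ribosome that shows a signal peptide and docks it at the Sec61 channel, signal peptidase cuts the peptide off, and oligosaccharyltransferase (OST) moves a ready-made glycan onto asparagine. COPII coats then bud vesicles toward the Golgi, and COPI coats bring ER residents and empty receptors back. Myeloperoxidase and the serine proteases of the granules take this path in promyelocytes.

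Expression is given as FPKM, in which fragment numbers are divided by transcript length and library total. Differences are log2((FPKM in APL#2 + 1)/(FPKM in APL#1 + 1)), so a negative value means lower in APL#2. A gene is termed measured where its FPKM averaged 1 or more in the pair of libraries, which held for 4100 genes in all and 44 of the 49 members. Sec63, Sec23a, Sec24a, Sec24b and Sec24d stayed under that level. Sec62, Copb1 and Sar1b were under FPKM 1 in APL#2 and reached it only through their higher FPKM in APL#1. Over all measured genes the median difference was -0.17; values "relative to all genes" have it subtracted. With 1 library per leukaemia no test was possible, and a difference between leukaemias cannot be told apart from one between recipients, cell doses or libraries. In bulk RNA, fewer cells of a type and less RNA per cell cannot be told apart either. As estimated from the low values of the table, the measured members rested on 61.8 to 1858 fragments in APL#2 (median 284.7) and on 98.5 to 2464 in APL#1 (median 424.2). These numbers use each member's longest principal transcript, and a shorter transcript would give fewer fragments and a wider counting error.

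Nearly all of the 49 genes were lower in APL#2, most of them by a modest amount. Of the 49 members, 48 had the lower FPKM in APL#2, Sec24a being the exception. All 44 measured members were lower by plain ratio, against 71.6% of all measured genes. Relative to all genes, 42 of the 44 (95.5%) lay below the median, where by construction 50% of measured genes lie, and their median was -0.27 with quartiles of -0.35 and -0.11. The quartiles of all measured genes were -0.19 and 0.22. The median member stood in APL#2 at 0.659 of its level in APL#1, against 0.835 for the median measured gene. Summed over the 49 members, FPKM came to 141.0 in APL#2 against 214.8 in APL#1.

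Large differences were few. On the log2(FPKM + 1) scale 2 of 44 measured members (4.55%) were at least 2-fold lower in APL#2, Rpn2 and Srp14, against 2.44% of all measured genes, and none was at least 2-fold higher, against 2.1%. At 1.5-fold, 9 of 44 (20.5%) were lower, against 10.1% of all measured genes, and none was higher, against 5.49%. These 9 were Rpn2, Srp14, Ddost, Ssr2, Rpn1, Sec62, Ostc, Spcs1 and Cope, and 4 of them belong to OST. By plain ratio, which does not shrink low genes, Rpn2, Ddost, Srp14 and Sec62 were at least 2-fold lower among the measured members, against 6.83% of measured genes. Sec62 counts as measured only through its FPKM in APL#1. With the all-gene median subtracted, 0 of the 44 were at least 2-fold lower and 4 at least 1.5-fold lower, against 1.76% and 5.34% of measured genes. With a pseudocount of 0.1, 4 were at least 2-fold lower and 22 at least 1.5-fold lower, against 6.15% and 20.1% of measured genes.

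**Figure D1:**
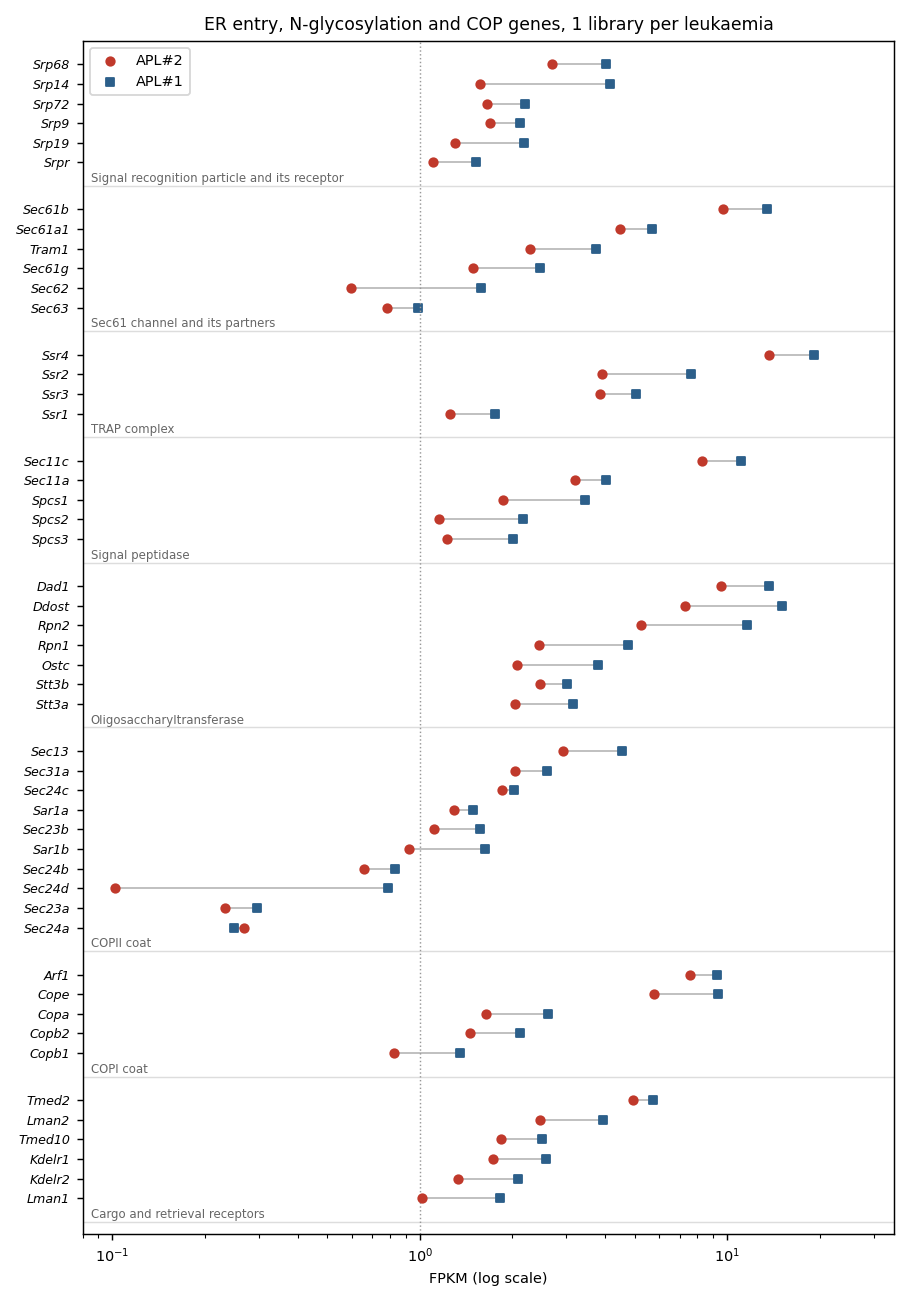
FPKM on a log axis of each of the 49 genes in APL#2 (circles) and APL#1 (squares), 1 library each, grouped by protein complex, with a dotted line at FPKM 1. In every gene but Sec24a the APL#2 circle lies left of the APL#1 square, and the gap is widest in Sec24d.

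**Figure D2:**
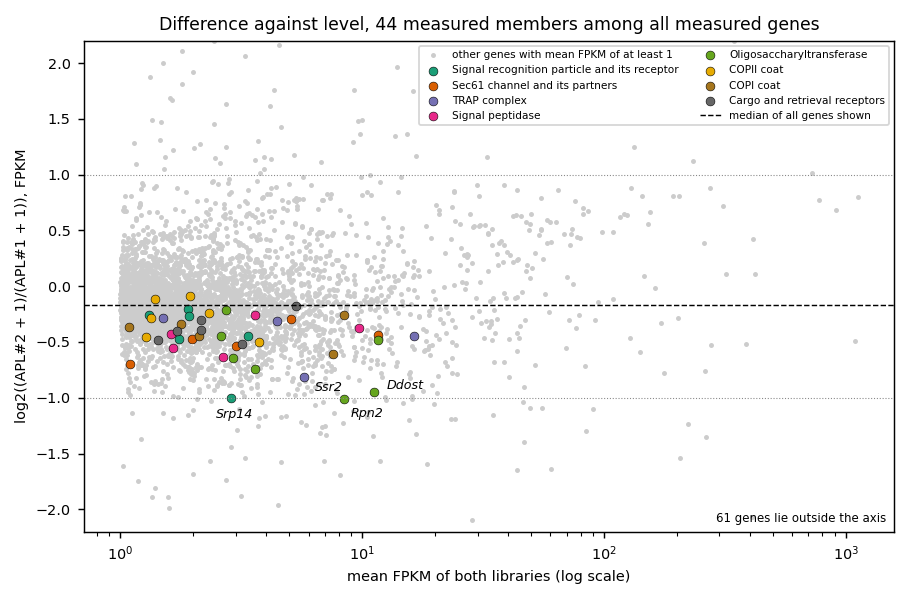
Difference on the log2(FPKM + 1) scale (APL#2 over APL#1) against mean FPKM on a log axis, for the 44 measured members (coloured by complex) and all other measured genes (grey, 61 of them outside the axis). The dashed line is the median of all measured genes, -0.17, the dotted lines mark 2-fold, and 42 of the 44 members lie below the dashed line.

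The targeting machinery came first along the path, and its outlier was Srp14. Srp14, which with Srp9 forms the part of SRP that slows the ribosome, stood at 1.57 FPKM in APL#2 against 4.15 in APL#1, a plain ratio of 0.379. Its partner Srp9 stood at 1.69 FPKM in APL#2 against 2.11 in APL#1, so the partners of this dimer differed unequally. Srp14 lies on chromosome 2 (mm9 chr2:118301579-118305432) within a stretch of 72 measured genes whose median was -0.60 relative to all genes. Srp14 itself was at -0.83 relative to all genes, and the part of its position in its value was not tested.

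The rest of SRP was lower by smaller amounts. Srp19, which helps assemble the particle, stood at 1.30 FPKM in APL#2 against 2.19 in APL#1. Srp68 and Srp72 bind each other and the SRP RNA. Srp68 stood at 2.69 FPKM in APL#2 against 4.03 in APL#1, and Srp72 at 1.65 FPKM in APL#2 against 2.19 in APL#1. Srpr, the receptor subunit that takes the particle over at the ER membrane, stood at 1.10 FPKM in APL#2 against 1.52 in APL#1. Each of the 6 genes was below the all-gene median, and the group median was -0.18 relative to all genes, or -0.080 without the shifted stretches, which leave out Srp14. Srpr shares its deposited locus with Fam118b, which was at 0.370 FPKM in APL#2 against 0.451 in APL#1.

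Of the channel genes, Sec62 stood out. Sec62, which with Sec63 serves proteins that enter the channel after translation, stood at 0.597 FPKM in APL#2 against 1.59 in APL#1, a plain ratio of 0.377. Sec63 stood at 0.782 FPKM in APL#2 against 0.987 in APL#1, close to the ratio of the median gene. The pore subunit Sec61a1 stood at 4.47 FPKM in APL#2 against 5.69 in APL#1. Its small partners differed more, Sec61b with 9.70 FPKM in APL#2 against 13.5 in APL#1 and Sec61g with 1.49 FPKM in APL#2 against 2.47 in APL#1. Tram1, which eases the entry of some signal peptides, stood at 2.28 FPKM in APL#2 against 3.75 in APL#1. Each of the 5 measured channel genes was below the all-gene median, and their group median was -0.30 relative to all genes.

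The TRAP complex sits beside the channel and helps weak signal peptides to open it. Ssr4 had the highest level of all 49 members in both leukaemias, with 13.7 FPKM in APL#2 against 19.1 in APL#1. Ssr2 differed most within the complex, with 3.91 FPKM in APL#2 against 7.63 in APL#1, a difference of -0.81. Ssr3 stood at 3.85 FPKM in APL#2 against 5.04 in APL#1, and Ssr1 at 1.26 FPKM in APL#2 against 1.75 in APL#1. The plain ratios of Ssr1, Ssr3 and Ssr4 lay between 0.717 and 0.764, whereas that of Ssr2 was 0.513.

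Signal peptidase combines a catalytic subunit, Sec11a or Sec11c, with accessory subunits. The catalytic genes were the least different. Sec11c stood at 8.31 FPKM in APL#2 against 11.1 in APL#1, and Sec11a at 3.20 FPKM in APL#2 against 4.04 in APL#1. Sec11a made up 27.8% of their summed FPKM in APL#2 and 26.8% in APL#1, so their balance was nearly the same. The accessory genes differed more. Spcs1 stood at 1.87 FPKM in APL#2 against 3.44 in APL#1, Spcs2 at 1.15 FPKM in APL#2 against 2.16 in APL#1, and Spcs3 at 1.23 FPKM in APL#2 against 2.01 in APL#1. Spcs1 shares its deposited locus with Snord69, a small nucleolar RNA gene listed at 1073 FPKM in APL#2 against 165.8 in APL#1, and had the widest error of all measured members by the authors' test. Spcs2 has a named pseudogene copy, Spcs2-ps, so its value is uncertain where reads were split.

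OST, as the 7 subunits listed here, had the lowest median of the 8 complexes. Each of its 7 members was below the all-gene median, the group median was -0.47 relative to all genes, and 4 were at least 1.5-fold lower. Rpn2, a membrane subunit (mm9 chr2:157034286-157152054, outside the chromosome 2 stretch), stood at 5.23 FPKM in APL#2 against 11.6 in APL#1, a difference of -1.01. Ddost, another membrane subunit of the core enzyme (mm9 chr4:137860653-137868526), stood at 7.30 FPKM in APL#2 against 15.1 in APL#1, a difference of -0.95. By estimate Rpn2 rested on about 802.3 fragments in APL#2 against 1639 in APL#1, and Ddost on about 861.3 in APL#2 against 1642 in APL#1, more than most members. Rpn2 shares its deposited locus with 4922505G16Rik, which was under 0.1 FPKM in both leukaemias.

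The other OST genes were lower by differing amounts. Rpn1, which can hold substrates near the enzyme, stood at 2.45 FPKM in APL#2 against 4.77 in APL#1, and lies in a stretch of chromosome 6 whose 153 measured genes had a median 0.30 above that of all genes. Ostc, the subunit that links the enzyme to the channel, stood at 2.07 FPKM in APL#2 against 3.79 in APL#1. Dad1, a small subunit needed for the stability of the complex, stood at 9.57 FPKM in APL#2 against 13.7 in APL#1. The catalytic subunits differed less than Rpn2 and Ddost. Stt3a, of the form that works on chains still in the channel, stood at 2.04 FPKM in APL#2 against 3.15 in APL#1. Stt3b, of the form that works on sites the first one skipped, stood at 2.46 FPKM in APL#2 against 3.02 in APL#1. Stt3a made up 45.4% of their summed FPKM in APL#2 and 51.1% in APL#1.

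The promoters of Rpn2, Srp14 and Ddost are shown because these were the 3 measured members with the lowest differences. The windows run from 250 bases before to 50 bases after the start of the gene in RefSeq (build GRCm38), at chr2:157278848-157279147 (plus strand) for Rpn2, chr2:118479647-118479946 (minus strand) for Srp14 and chr4:138304488-138304787 (plus strand) for Ddost. Capitals mark CCAAT and CCACG on either strand, the parts of the ER stress element (ERSE), in which CCACG follows CCAAT after 9 bases. ERSE is a target of the transcription factors of the unfolded protein response.
Rpn2: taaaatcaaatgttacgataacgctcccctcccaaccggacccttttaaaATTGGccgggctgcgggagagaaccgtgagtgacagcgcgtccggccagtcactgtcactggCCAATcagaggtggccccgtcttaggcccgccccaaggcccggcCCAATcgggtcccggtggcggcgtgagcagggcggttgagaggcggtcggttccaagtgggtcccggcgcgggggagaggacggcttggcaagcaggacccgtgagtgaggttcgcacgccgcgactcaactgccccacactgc
Srp14: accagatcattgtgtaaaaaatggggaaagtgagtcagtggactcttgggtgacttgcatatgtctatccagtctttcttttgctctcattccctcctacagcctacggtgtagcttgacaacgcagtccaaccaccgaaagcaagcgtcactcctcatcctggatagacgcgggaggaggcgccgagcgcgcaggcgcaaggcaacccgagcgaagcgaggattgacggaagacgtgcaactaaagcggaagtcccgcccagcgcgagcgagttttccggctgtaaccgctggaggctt
Ddost: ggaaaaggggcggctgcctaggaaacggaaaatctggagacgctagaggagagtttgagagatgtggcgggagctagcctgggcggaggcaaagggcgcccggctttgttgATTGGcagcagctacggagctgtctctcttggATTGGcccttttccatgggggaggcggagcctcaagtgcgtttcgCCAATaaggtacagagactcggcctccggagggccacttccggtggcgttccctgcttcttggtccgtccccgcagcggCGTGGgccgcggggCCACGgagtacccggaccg
The Rpn2 window holds CCAAT 3 times and CCACG 0 times, counting both strands, the Ddost window holds them 3 and 2 times without the spacing of ERSE, and the Srp14 window holds neither. CCAAT was in 18 of 38 members with a window (47.4%), against 41.1% of all genes with a window, and CCACG in 25 (65.8%), against 35.5%; member windows had a median GC content of 59%, against 52.7% for all windows. Windows were at hand for 38 of the 49 members and for 27025 genes in all. ERSE was in none of the 38 and in 0.137% of all genes with a window. The related ERSE-II, in which CCACG follows ATTGG after 1 base, was in none of the 38 and in 0.0444% of all. For comparison, ERSE was in 8 of 25 genes of ER folding with a window, and that of the chaperone gene Hspa5 begins 65 bases before the start (within chr2:34771840-34772139, plus strand, GRCm38), with ERSE in capitals.
Hspa5: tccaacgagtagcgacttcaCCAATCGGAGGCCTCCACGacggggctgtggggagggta
An absent match says only that these letters are not in these windows.

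COPII, which buds vesicles from the ER, was the complex of the 8 whose median was closest to that of all genes. Of its 10 members 6 were measured, 4 of them below and 2 above the all-gene median, and the group median was -0.09 relative to all genes. The outer coat genes were Sec13, with 2.93 FPKM in APL#2 against 4.56 in APL#1, and Sec31a, with 2.04 FPKM in APL#2 against 2.59 in APL#1. Sec13 also serves in the nuclear pore. Of the inner coat, Sec23b stood at 1.11 FPKM in APL#2 against 1.57 in APL#1, and Sec23a at 0.232 FPKM in APL#2 against 0.296 in APL#1. Of the GTPases that start the coat, Sar1a stood at 1.29 FPKM in APL#2 against 1.49 in APL#1, and Sar1b at 0.925 FPKM in APL#2 against 1.63 in APL#1. Sar1a thus made up 58.3% of Sar1 FPKM in APL#2 and 47.7% in APL#1.

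The cargo-binding Sec24 genes held the largest difference of all 49 members by plain ratio. Sec24d stood at 0.102 FPKM in APL#2 against 0.790 in APL#1, a plain ratio of 0.129, from about 22.1 fragments in APL#2 against 158.6 in APL#1. Its paralogues differed less. Sec24c stood at 1.85 FPKM in APL#2 against 2.03 in APL#1, Sec24b at 0.658 FPKM in APL#2 against 0.832 in APL#1, and Sec24a at 0.267 FPKM in APL#2 against 0.249 in APL#1. Sec24c and Sar1a were the 2 measured members above the all-gene median. Sec24d made up 3.54% of the summed Sec24 FPKM in APL#2 and 20.3% in APL#1, while Sec24c made up 64.2% in APL#2 and 52.0% in APL#1. Sec24d lies at mm9 chr3:122970414-123068554 and was under the measured level.

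COPI coats return proteins from the Golgi to the ER. The 5 COPI genes listed here were all lower in APL#2, with a group median of -0.19 relative to all genes. Cope, the epsilon subunit, differed most, with 5.77 FPKM in APL#2 against 9.34 in APL#1. Copa, the alpha subunit, stood at 1.64 FPKM in APL#2 against 2.60 in APL#1. The subunit genes Copb1 and Copb2 stood at 0.826 and 1.46 FPKM in APL#2, against 1.35 and 2.11 in APL#1. Arf1, the GTPase that recruits the coat and also acts elsewhere in the Golgi, differed least, with 7.58 FPKM in APL#2 against 9.29 in APL#1. Copa shares its deposited locus with Ncstn, which stood at 1.31 FPKM in APL#2 against 2.03 in APL#1.

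Some coat genes have a promoter element of the unfolded protein response. This element (UPRE), TGACGTGG, was searched on both strands. Its complement begins with CCACG, so each match also holds that part of ERSE. It was in the windows of 5 of 38 members (13.2%), against 0.714% of all genes with a window and 1.02% of measured genes with one. All 5 belong to the coat lists. Of the 5 listed COPI genes 3 held it, Arf1, Copb1 and Copb2, and of the 10 listed COPII genes 2, Sec23a and Sec24d. The COPI list is partial. The coat genes Arcn1, Copg, Copg2, Copz1 and Copz2 are counted with the other ER to Golgi and COPI genes. In that list 5 of 55 genes with a window (9.09%) held the element, none of them a COPI coat subunit gene. Whether each further coat gene had a window was not examined. No window of the SRP, channel, TRAP, signal peptidase, OST or receptor genes held the element. All 10 listed COPII and 5 listed COPI genes had a window, but not all of the others. Windows were at hand for 4 of 6 SRP, 4 of 6 channel and 3 of 4 TRAP genes. They were at hand for 3 of 5 signal peptidase, 6 of 7 OST and 3 of 6 receptor genes. The members without a window all lie outside the coat lists and could not be searched. The element with 20 bases on each side, read along the gene, is printed for the 5 members, with UPRE or its complement in capitals.
Sec24d: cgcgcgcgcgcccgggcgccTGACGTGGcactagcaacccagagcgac
Copb1: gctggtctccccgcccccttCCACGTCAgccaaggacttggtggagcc
Copb2: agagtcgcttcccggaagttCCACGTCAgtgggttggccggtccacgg
Arf1: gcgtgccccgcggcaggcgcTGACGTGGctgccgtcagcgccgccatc
Sec23a: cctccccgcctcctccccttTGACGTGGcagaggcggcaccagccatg
The RefSeq windows (GRCm38) are chr3:123267246-123267545 on the plus strand for Sec24d, chr7:114254631-114254930 on the minus strand for Copb1 and chr9:98563481-98563780 on the plus strand for Copb2. Those of Arf1, chr11:59228113-59228412, and Sec23a, chr12:59011968-59012267, are on the minus strand. The element began 26 bases before the start in Sec24d, 28 in Copb1, 7 in Copb2 and 84 in Arf1, and at base 7 of the transcript in Sec23a; a further Arf1 window holds the same site from another start. The differences of these genes relative to all genes ran from -0.53 in Sec24d to 0.10 in Sec23a, so genes with the element were not alike in difference, and both ends of that range are genes under the measured level.

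Receptors that load or return cargo had plain ratios of 0.557 in Lman1 to 0.864 in Tmed2. Lman1, a lectin that carries glycoproteins to the Golgi, stood at 1.02 FPKM in APL#2 against 1.83 in APL#1, and its relative Lman2 at 2.45 FPKM in APL#2 against 3.94 in APL#1. Kdelr1 and Kdelr2 bring ER chaperones with a KDEL ending back from the Golgi. Kdelr1 stood at 1.73 FPKM in APL#2 against 2.57 in APL#1, and Kdelr2 at 1.34 FPKM in APL#2 against 2.09 in APL#1. Their shares were alike, with Kdelr1 at 56.4% of the sum in APL#2 and 55.1% in APL#1. Of the Tmed cargo receptors, Tmed10 stood at 1.83 FPKM in APL#2 against 2.49 in APL#1, and Tmed2 at 4.95 FPKM in APL#2 against 5.73 in APL#1. Tmed10 has a named pseudogene copy, Tmed10-ps. Tmed2 differed by nearly the same amount as the median gene, and the group median was -0.23 relative to all genes.

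**Figure D3:**
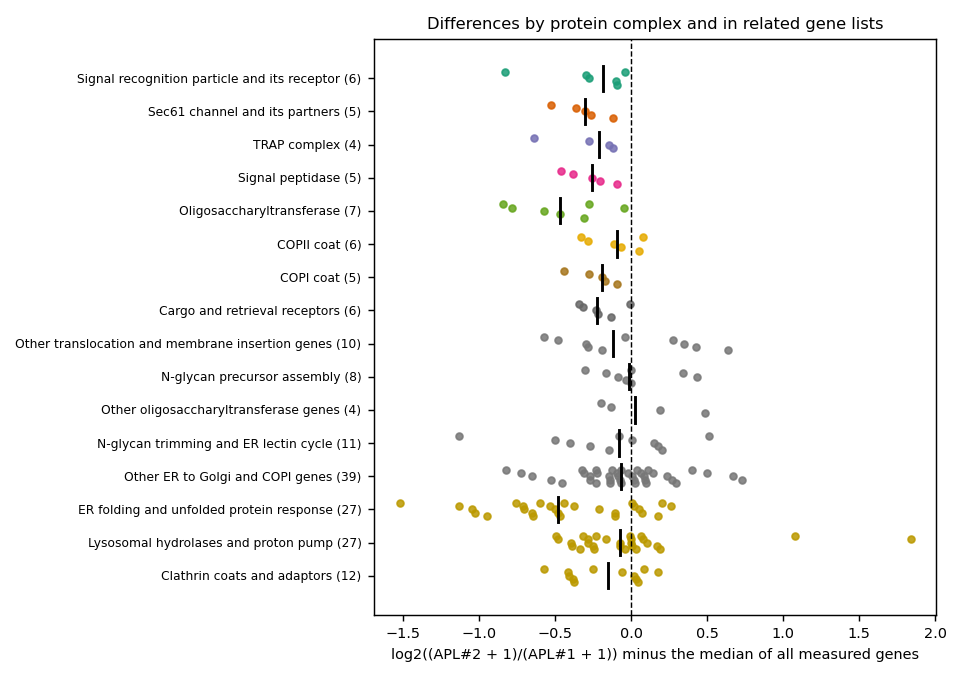
Difference on the log2(FPKM + 1) scale relative to all measured genes for each measured gene (points, spread vertically for legibility) of the 8 complexes, 5 lists of other genes of the pathway (grey) and 3 lists of other organelles or processes (ochre), with group medians as black bars and the number of genes in brackets. OST, as the 7 subunits listed, has the lowest median of the 8 complexes, -0.47, beside -0.48 for ER folding, and the grey lists lie between -0.12 and 0.03.

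Other genes of the same pathway had a median nearer to that of all genes, a difference between lists that was not tested. Of 145 symbols listed for such genes, some of them alternative names of 1 gene, 134 were in the table. Of these 72 were measured, 41 below and 31 above the all-gene median, with a median of -0.06 relative to all genes. Among them, 1 gene was at least 2-fold lower, Calr, which is also counted with ER folding, and none was at least 2-fold higher. The 39 measured genes of ER to Golgi and COPI transport outside the 49 had a median of -0.06, with the cargo receptor gene Tmed9 at a plain ratio of 0.741 and the SNARE gene Use1 at 11.4 FPKM in APL#2 against 9.52 in APL#1. The 10 measured genes of other translocation routes had a median of -0.12, with Sil1, the exchange factor of Hspa5, at 7.70 FPKM in APL#2 against 5.31 in APL#1, and Get4 at 2.17 FPKM in APL#2 against 3.39 in APL#1.

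Genes that build the glycan before OST transfers it went both ways. The 8 measured genes of precursor assembly ran from -0.30 in Pmm1 to 0.43 in Dpm3 relative to all genes and had a median of -0.02, with Dpm3 at 7.10 FPKM in APL#2 against 5.76 in APL#1 and Dpm2 at 1.99 FPKM in APL#2 against 2.45 in APL#1; both belong to the enzyme that makes dolichol phosphate mannose. The 4 further OST genes had a median of 0.03, and with them the OST median is -0.28, no longer below that of the Sec61 channel; among them were Krtcap2 at 8.08 FPKM in APL#2 against 10.7 in APL#1, and Ost4, a very small subunit, at 6.87 FPKM in APL#2 against 5.32 in APL#1. After transfer, the glycan is trimmed and read by lectins, and 11 measured genes of that step had a median of -0.08. Calr, a lectin chaperone, stood at 48.1 FPKM in APL#2 against 119.9 in APL#1, and Prkcsh, of the trimming glucosidase, at 6.26 FPKM in APL#2 against 7.15 in APL#1.

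Set beside neighbouring processes, the median of the 44 measured members lay between that of ER folding and those of lysosomal and clathrin genes. This order held for genes of FPKM 1 and above. Where FPKM averaged 5 or more it turned over for clathrin, with medians of -0.30 for the members and -0.42 for clathrin genes (Clta, Ap2s1 and Ap3s1). The 27 measured genes of ER folding and the unfolded protein response had a median of -0.48 by the same measure, with 20 below the all-gene median and 5 at least 2-fold lower. Besides Calr these were the chaperone gene Hspa5 (13.8 FPKM in APL#2 against 32.9 in APL#1), the disulphide isomerase genes Pdia3 (3.30 FPKM in APL#2 against 12.9 in APL#1) and Pdia6 (2.95 FPKM in APL#2 against 8.20 in APL#1), and Sdf2l1 (5.38 FPKM in APL#2 against 12.9 in APL#1). Pdia3 lies in the chromosome 2 stretch. Ppib, a prolyl isomerase of the ER, had the next highest level after Calr, with 29.0 FPKM in APL#2 against 51.8 in APL#1. The 27 measured lysosomal and proton pump genes had a median of -0.07, with the protease gene Ctsh at least 2-fold higher at a plain ratio of 11.6. Of their 2 most abundant genes, Atp6v1f stood at 6.64 FPKM in APL#2 against 7.22 in APL#1, and Atp6v0c at 8.31 FPKM in APL#2 against 3.97 in APL#1. The 12 measured clathrin genes had a median of -0.15, with Clta at 5.48 FPKM in APL#2 against 9.86 in APL#1 and Ap3s1 at 7.19 FPKM in APL#2 against 8.12 in APL#1. Differences between these medians were not tested.

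The members are spread over 16 chromosomes, and 4 lie in the stretches where neighbouring genes were shifted together. Outside these stretches lay 40 of the 44 measured members and 3741 of the 4100 measured genes, which are similar shares. Srp14 is the 1 member in the chromosome 2 stretch and none lies on chromosome 19. Rpn1, Sec61a1 and Sec13 lie in the chromosome 6 stretch, whose genes had a median plain ratio of 1.14, and these 3 had plain ratios of 0.513, 0.785 and 0.643. The closest pair of members, Sec24a and Sar1b on chromosome 11, lie 6.83 kb apart and stood at 0.19 and -0.28 relative to all genes. Without these stretches, 1 measured member was at least 2-fold lower, against 2.25% of the remaining measured genes. The member median was then -0.24 relative to the remaining genes.

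The precision of single ratios can be judged in 2 ways. From the estimated fragments, the counting error of a measured member's log2 ratio was 0.04 to 0.23, with a median of 0.11, and 28 of 44 lay more than 2 such errors from the ratio of the median gene. Counting error leaves out all variation between animals and library preparations. The standard error implied by the authors' test, the size of the log2 ratio over that of the deposited test statistic, was 0.62 to 1.51 with a median of 0.88, and among measured members the log2 ratio was larger than it in 6, Srp14, Sec62, Ssr2, Ddost, Rpn1 and Rpn2. For both counts, 28 and 6, the share of all measured genes past the same limit was not computed. Neither count therefore sets the members apart from other genes. In the authors' deposited table none of the 44 measured members had a p-value of at most 0.05, against 1.56% of measured genes. The lowest there was 0.0663, of Rpn2, followed by 0.0908 for Ddost, and among all 49 Sec24d had 0.00836. The q-value in the authors' deposited table was 0.999997 for all 49.

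**Figure D4:**
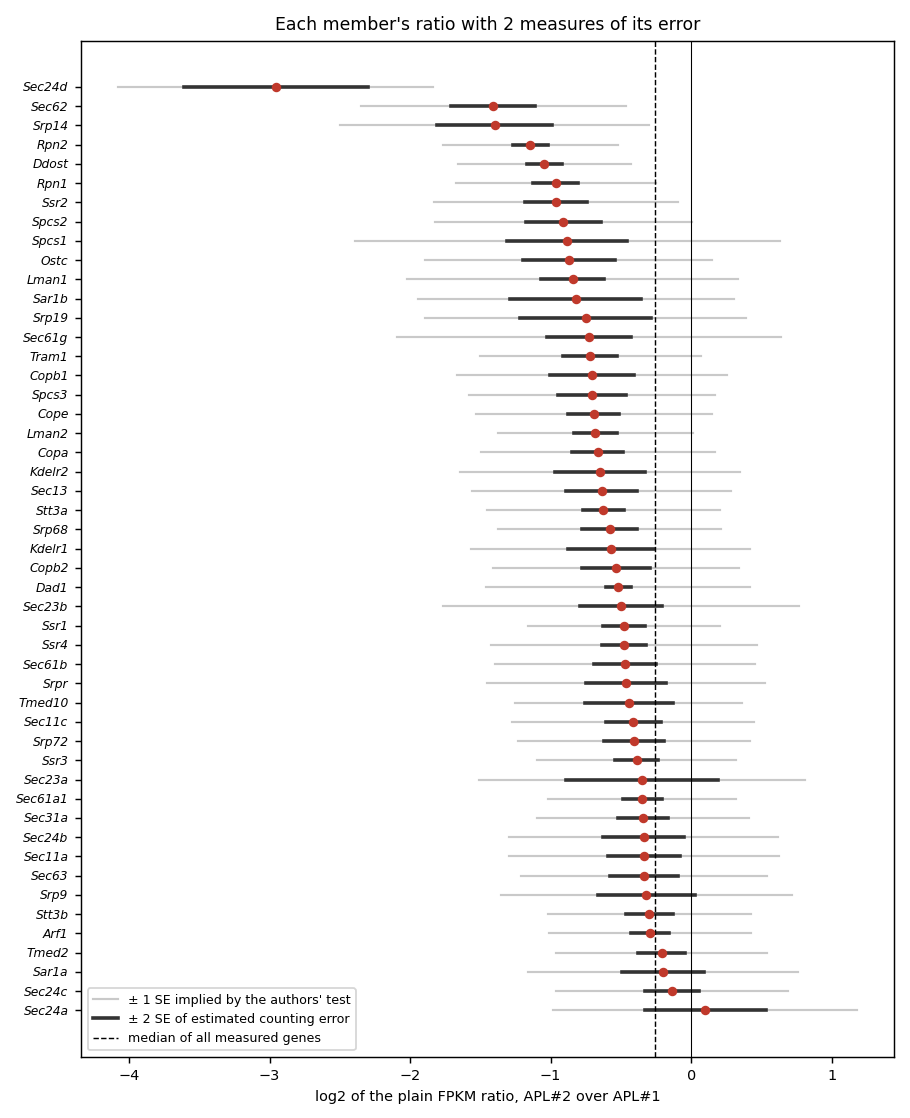
Log2 of the plain FPKM ratio (APL#2 over APL#1) of the 49 genes, ordered from lowest to highest, with thick bars of 2 standard errors of estimated counting error and thin bars of 1 standard error implied by the authors' test; the dashed line is the median of all measured genes. Rpn2 and Ddost have narrow counting bars well left of the dashed line, and the thin bars of most genes reach past 0.

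Markers of the labelled cell type were present. All 8 promyelocyte markers were measured, summing to 238.4 FPKM in APL#2 against 778.0 in APL#1, and 4 were below and 4 above the all-gene median, so the lower sum does not describe the list. Most of the sum came from Mpo, whose product myeloperoxidase is N-glycosylated in the ER, at 157.3 FPKM in APL#2 against 661.8 in APL#1. Elane, neutrophil elastase, was also at least 2-fold lower, at 5.01 FPKM in APL#2 against 32.4 in APL#1, and Cd63, of granule membranes, stood at 37.2 FPKM in APL#2 against 51.8 in APL#1. Ms4a3, on chromosome 19, was higher, at 15.9 FPKM in APL#2 against 7.85 in APL#1, as was Ctsg, cathepsin G, at 8.99 FPKM in APL#2 against 7.89 in APL#1. Ptprc, which codes for CD45, stood at 4.10 FPKM in APL#2 against 4.66 in APL#1. Plasma cells of the spleen have an abundant ER, and their markers were near 0. The 8 plasma cell markers in the table summed to 0.179 FPKM in APL#2 against 1.03 in APL#1, of which Fkbp11, an ER protein found in other cells too, gave 0.0608 FPKM in APL#2 against 0.953 in APL#1. Of these markers, 4 were listed at 0 in both leukaemias, Sdc1, Tnfrsf17 and Prdm1 among them. The 8 B cell markers summed to 0.535 FPKM in APL#2 against 0.250 in APL#1, and 7 T cell markers to 0.493 FPKM in APL#2 against 0.0640 in APL#1, with none measured. Of 8 macrophage markers Cd68 was measured, and the list summed to 1.81 FPKM in APL#2 against 1.74 in APL#1. The near-equal sums hide opposite differences. Cd68 stood at 1.01 FPKM in APL#2 against 1.54 in APL#1, and Emr1 at 0.537 FPKM in APL#2 against 0.0230 in APL#1. None of 6 erythroid markers was measured, and they summed to 0.526 FPKM in APL#2 against 0.742 in APL#1. Of 8 stromal and endothelial markers Pecam1 and Pdgfrb were measured and 3 were at 0 in both, and the list summed to 2.74 FPKM in APL#2 against 4.94 in APL#1. That difference was nearly all Pecam1, at 1.62 FPKM in APL#2 against 3.62 in APL#1, while Pdgfrb stood at 1.11 FPKM in APL#2 against 1.30 in APL#1 and lay above the all-gene median. The selection for CD45.2 would remove cells that lack CD45, and the part of such cells in the results was not tested.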

How the data were processed

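The table was made by the authors from 1 RNA library per leukaemia. TopHat2 2.0.10, Cufflinks, Cuffdiff and the build mm9 are listed without role or order in the submitters' processing notes. In the sources used here, annotation, strand and normalization setting are not given. The values deposited by the authors were read as FPKM from the layout of the table, whose header names no unit. The test statistic deposited by the authors is a score per gene, with a sign opposite to the fold, and the p-value and q-value are theirs, per the file headers. The log2 column was not used, since genes listed at 0 carry placeholders there. No counts were used here. Depth was estimated from low genes (mean FPKM under 0.2). In 304 of 3168 such genes the ratio of APL#1 to APL#2 took its commonest value, 1.08, within 0.1%. Of these, 69 had 1 transcript in GENCODE M21. In each library the estimate was the median of 23 of them that lay close together in FPKM times length. For a transcript of 1 kb a single fragment then equals about 0.0180 FPKM in APL#2 against 0.0194 in APL#1. Member lengths are those of the longest principal transcript in GENCODE M21, so fragment numbers are approximate.

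Differences used a pseudocount of 1, which shrinks low genes, and lists were described by counts and medians in Python 3.11.15 with pandas 2.3.3, with steps tested on simulated data. The stretches, taken from an earlier description of this table, are chromosome 19, Psmd14 to 1110034G24Rik on chromosome 2 and Capg to Far2 on chromosome 6. Members and lists were chosen with earlier results of these data known. All members are named, and from the other pathway and comparison lists genes at least 2-fold apart and the 2 most abundant of each; further names, markers included, were chosen after their values were seen. Promoter windows are RefSeq's (GRCm38.p6), and none from chromosome 18 is printed. Protein sequence was not used here. Alternatives were other pseudocounts, filters, centrings and gene sets.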

Additional observations from a re-analysis of the deposited data

How the results depend on the processing

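The member median stayed below the centre in use under all 7 settings tried. It was lowest, -0.47, where the centre was the ratio of summed FPKM and not the all-gene median. Relative to the all-gene median it ran from -0.41, with no filter on low values, to -0.24, without the stretches. With a pseudocount of 0.1 or of 0.01, 4 members were at least 2-fold lower, against 6.15% and 6.83% of measured genes. At 1.5-fold 22 were lower, against 20.1% and 21.5%. The medians were -0.44 and -0.46 for the channel and -0.39 and -0.40 for COPI, and the difference of Sec24d was -2.14 and -2.84. With no filter on low values the medians were -0.43 for the channel, -0.34 for COPI, -0.37 for the receptors and -0.12 for the further OST genes. Where FPKM averaged 5 or more, 11 members remained, all 11 below the median, 1 at least 2-fold lower (8.20% of such genes) and 4 at least 1.5-fold lower (19.8%). Some lists then held a single gene, whose value stands as the median. These were -0.022 for the receptors (Tmed2 alone) and -0.22 for signal peptidase (Sec11c alone). The others were 0.62 for other translocation genes (Sil1 alone) and 0.42 for precursor assembly (Dpm3 alone). The medians were -0.48 for TRAP (Ssr2 and Ssr4) and 0.049 for the lysosome (Atp6v1f, Atp6v0c and Hexa). Other lists had a lower median there than with the filter at FPKM 1. Their medians were -0.80 for OST, -0.77 for ER folding, -0.47 for glycan trimming, -0.42 for clathrin and -0.24 for ER to Golgi genes. The median of the members was -0.30, and SRP and COPII had no gene left. Centred on the ratio of summed FPKM, the medians were -0.39 for SRP, -0.51 for the channel, -0.46 for signal peptidase, -0.40 for COPI, -0.43 for the receptors, -0.22 for precursor assembly and -0.18 for the further OST genes. Without the stretches 1 member was at least 2-fold lower (2.25% of such genes), and the medians were -0.080 for SRP, -0.051 for COPII and -0.19 for glycan trimming. Relative to the all-gene median, a setting added after the data were seen, 0 members were at least 2-fold lower (1.76% of measured genes) and 4 at least 1.5-fold lower (5.34%). With the 4 further OST genes, also added then, the OST median was -0.28. Counts and medians at the higher filter rest on fewer genes. For the other settings the cause was not tested. Leaving out small RNA genes left the counts of members at 2, 9 and 42. Of the remaining genes 1.77% were at least 2-fold lower and 9.57% at least 1.5-fold lower. No paired analysis was possible because each leukaemia has 1 library. Genes with few fragments, such as Sec24d, have the widest counting error.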

Other observations

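Sec16b, a scaffold of COPII exit sites that lies outside the 49 genes, stood beside Sec24d in size of difference. Sec16b, named here after its value was seen, was at 0.137 FPKM in APL#2 against 1.07 in APL#1, a plain ratio of 0.128, and the authors' deposited table gave a p-value of 0.0146 and a q-value of 0.999997. Its RefSeq window also holds UPRE, 44 bases before the start, as do those of Gbf1, Kdelr3, Scfd1 and Stx5a in the same list. The chromosome 19 genes Gbf1 (1.07 FPKM in APL#2 against 0.675 in APL#1) and Stx5a (2.65 FPKM in APL#2 against 1.59 in APL#1) were higher in APL#2, on a chromosome where the 134 measured genes had a median 0.60 above that of all genes.

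Other genes of ER to Golgi transport with wide differences, also named after their values were seen, went both ways. Surf4, a cargo receptor, was at 3.46 FPKM in APL#2 against 6.88 in APL#1, and Copz1, of the COPI coat, at 2.08 FPKM in APL#2 against 3.99 in APL#1. Tmed3, a relative of Tmed2 and Tmed10, was higher in APL#2, with 10.9 FPKM against 7.06 in APL#1. Gorasp2 (0.823 FPKM in APL#2 against 2.64 in APL#1) and Arfgap2 (0.496 FPKM in APL#2 against 1.79 in APL#1) lie in the chromosome 2 stretch.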
